A study of Bos taurus with 252 samples.

Results

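Glucocorticoid-responsive genes were followed in the blood of feedlot cattle. They are the gene of the glucocorticoid receptor, NR3C1, and 7 genes that are widely used as readouts of its activity, namely FKBP5, TSC22D3, DUSP1, ZBTB16, KLF9, DDIT4 and SGK1. The genes were chosen by name as markers of handling and arrival stress. All 8 are listed by symbol among the 33282 genes of the count table, and all 8 were among the 19056 genes that passed the filter on low counts, a CPM (the count of a gene scaled to a common library size) above 0.2 in at least 12 libraries.

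Whole blood was drawn from 42 crossbred steers on day 0 of a feedlot receiving period and on 5 later days (3, 7, 14, 21 and 56), which gave 6 mRNA libraries for each steer. The steers formed 7 groups of 6. The negative controls (NC) were left untreated, and the other steers received a single labelled dose of enrofloxacin (ENRO), florfenicol (FLOR), tulathromycin (TULA), tildipirosin (TILD), ceftiofur (CEFT) or oxytetracycline (OXYT) on day 0, after the blood was taken. Earlier, at the start of backgrounding, all cattle of the 7 groups had been given tildipirosin, a trenbolone acetate and estradiol implant, vaccines and dewormers, so the NC steers were not free of earlier antimicrobial exposure. The steers had arrived on the day before day 0, and no steer was pulled or treated for clinical disease afterwards. Each group was held in 1 pen. After day 0 the groups went through the chute in 1 order on every sampling day, NC first and then ENRO and FLOR, the macrolide groups TULA and TILD, and last CEFT and OXYT. NC and ENRO were sequenced on lane 1, TULA on lane 2, CEFT and OXYT on lane 3, FLOR on lanes 1 and 2 (2 and 4 steers) and TILD on lanes 2 and 3 (4 and 2 steers). Treatment, pen, order and, for most groups, lane cannot be told apart.

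Cortisol, the main glucocorticoid of cattle, is released by the adrenal cortex during transport, handling and other stress. It binds a receptor that is held in the cytoplasm by heat shock proteins, and the receptor then enters the nucleus and switches genes on or off. In blood, glucocorticoids also change the numbers of circulating neutrophils, lymphocytes and other leukocytes. In RNA from whole blood, fewer cells of a type and less RNA per cell cannot be told apart.

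The libraries held between 26073640 and 74110289 counts, with a median of 43608836. NR3C1 had between 660 and 4762 counts in a library and TSC22D3 between 20993 and 123541, whereas KLF9 had between 9 and 494 and ZBTB16 between 30 and 455, so counting error was largest for these 2 genes. Hemoglobin genes took a median of 0.224% of the counts on day 0 and 3.36% on day 21, and at most 25.5% in any library. The labels give whole blood, and 14 of 15 neutrophil, 14 of 14 T cell and 10 of 10 monocyte markers passed the filter on low counts.

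Across all 42 steers, 7 of the 8 genes fell after day 0, and none rose. On day 3, 6 genes were lower than on day 0, and on each of days 7, 14, 21 and 56 there were 7. Over all genes tested, the shares lower on these days were 18.3%, 19.7%, 30%, 31.6% and 30.8% in turn (edgeR's quasi-likelihood test, steer as a block, adjusted p of at most 0.05). The median log2 fold change of the 8 genes was -0.35, -0.46, -0.56, -0.54 and -0.52 on the 5 days, whereas the median over all genes lay between 0.02 and 0.03. Over the 6 days together, 7 of the 8 genes differed between days, against 77.1% of all genes. DDIT4 was the exception (adjusted p = 0.171).

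**Figure D1:**
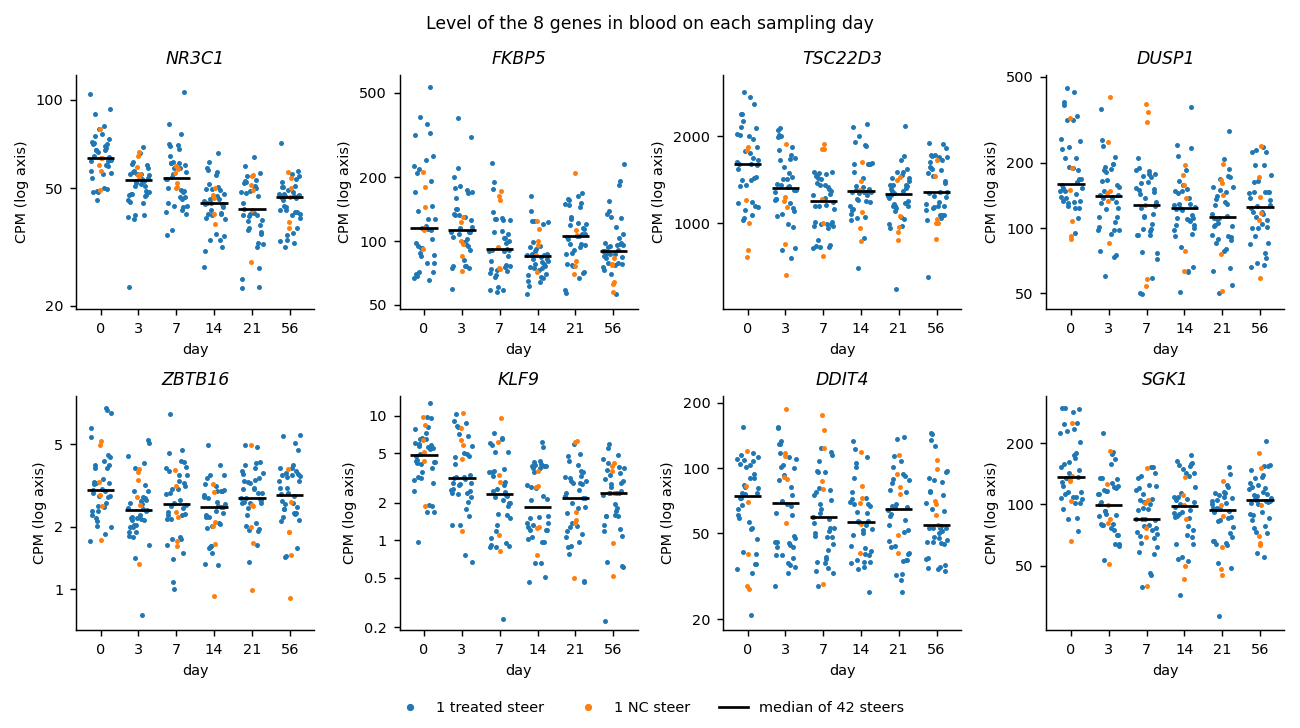
Level of each gene in every library, in CPM on a log axis, by sampling day. Blue points are treated steers, orange points are NC steers and the black bar is the median of 42 steers; the bars of all 8 genes sit lower on day 14 than on day 0, with wide overlap between days.

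The receptor itself was lower on every later day. NR3C1 ranged from 45.7 to 104.1 CPM on day 0 (median 63.5), from 23.1 to 69.1 on day 3 (median 53.2) and from 27.1 to 66.1 on day 14 (median 44.6). On day 21 its values were between 22.9 and 63.6 CPM (median 42.4), and on day 56 between 31.7 and 71.1 (median 46.6). The ranges overlapped, but 37 of 42 steers were below their own day 0 value on day 3, and 41 of 42 on each of days 14, 21 and 56. The log2 fold change was -0.33 ± 0.05 (SE, adjusted p = 1.05e-08) on day 3 and -0.62 ± 0.05 (adjusted p = 3.11e-25) on day 21, which is 1.54-fold lower. After day 3, the step from day 7 to day 14 was the next to pass (-0.31 ± 0.05, adjusted p = 6.26e-08).

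FKBP5 encodes a co-chaperone that lowers the receptor's affinity for hormone and is itself induced by the receptor. On day 0 it spread widely, from 65.7 to 528.9 CPM with a median of 114.9. On day 3 the values were between 59.7 and 380.6 CPM (median 112.6), on day 7 between 57.6 and 234.3 (median 91.4), and on day 14 between 56.6 and 162.9 (median 84.8). The low end hardly moved between days, and the high values of day 0 were no longer present on day 14. The log2 fold change was -0.23 ± 0.10 on day 3 (adjusted p = 0.0481), -0.73 ± 0.10 on day 14 (adjusted p = 1.02e-11) and -0.58 ± 0.10 on day 56 (adjusted p = 2.58e-08). The median of the individual log2 changes was smaller, -0.07 on day 3, when 25 of 42 steers were lower, and -0.37 on day 14, when 35 were lower. The day 3 call was lost in several alternatives (without a steer block the adjusted p was 0.0883, with limma voom 0.185, and without TILD 0.269).

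TSC22D3, also called GILZ, and DUSP1, a phosphatase of MAP kinases, carry part of the anti-inflammatory action of glucocorticoids. TSC22D3 ranged from 766.4 to 2843 CPM on day 0 (median 1602), from 663.7 to 2143 on day 3 (median 1320) and from 771.7 to 1874 on day 7 (median 1198). It then stayed near that level, with medians of 1288 on day 14, 1264 on day 21 and 1285 on day 56. It was lowest on day 7, when 33 of 42 steers were below their day 0 value and the log2 fold change was -0.41 ± 0.06 (adjusted p = 5.51e-09). From day 7 to day 14 it rose by 0.15 ± 0.06 on the log2 scale (adjusted p = 0.0331).

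DUSP1 ranged from 89.5 to 445.8 CPM on day 0 (median 160.3), from 60 to 405.3 on day 3 (median 140.2) and from 49.9 to 281.0 on day 21 (median 112.8). High and low steers occurred on every day. Its log2 fold change was -0.37 ± 0.11 on day 3 (adjusted p = 0.0039) and -0.66 ± 0.11 on day 21 (adjusted p = 3.03e-08), and between 30 and 34 of 42 steers were lower on each later day.

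ZBTB16 and KLF9 encode zinc finger transcription factors. ZBTB16 was low in blood, between 1.72 and 7.44 CPM on day 0 (median 3.02), between 0.75 and 5.26 on day 3 (median 2.42) and between 0.905 and 5.52 on day 56 (median 2.85). On day 3, 36 of 42 steers were lower, and on day 56 only 25. The log2 fold change was -0.40 ± 0.08 on day 3 (adjusted p = 2.55e-05), -0.47 ± 0.08 on day 14 (adjusted p = 1.54e-07) and -0.22 ± 0.08 on day 56 (adjusted p = 0.0134). The calls of days 21 and 56 were lost when TILD was left out (adjusted p = 0.116 and 0.152).

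KLF9 had the largest fold changes of the 8 genes from day 7 on. It ranged from 0.964 to 12.6 CPM on day 0 (median 4.85), from 0.675 to 10.5 on day 3 (median 3.18) and from 0.463 to 6.14 on day 14 (median 1.84). On day 56 it was between 0.224 and 5.89 CPM (median 2.41). The log2 fold change was -0.40 ± 0.18 on day 3, which did not pass (adjusted p = 0.0705), -0.90 ± 0.18 on day 7 (adjusted p = 1.2e-05) and -1.18 ± 0.19 on day 14 (adjusted p = 4.52e-09), 2.27-fold lower. On days 14, 21 and 56, 34, 35 and 35 of 42 steers were below their day 0 value. KLF9 overlaps SMC5 in the ARS-UCD2.0 annotation, and SMC5 had a correlation of 0.10 with it over all libraries, after steer and group-by-day means were removed. That measure leaves out the change between days. SMC5 was itself lower on days 14, 21 and 56 (log2 fold changes of -0.38, -0.43 and -0.36), but did not pass on days 3 and 7 (-0.11 and 0.06). Whether the 2 genes share reads was not tested.

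DDIT4 inhibits the growth kinase mTOR, and SGK1 is a kinase that controls ion transport and cell survival. DDIT4 did not pass on any later day with all steers. It ranged from 21.0 to 154.1 CPM on day 0 (median 74.4), from 28.5 to 187.7 on day 3 (median 69.3) and from 26.7 to 133.7 on day 14 (median 56.6). On day 3, 21 steers were lower and 21 higher than on day 0. Its log2 fold change was largest on day 14 at -0.23 ± 0.11 (adjusted p = 0.0644), and it passed on that day when NC (-0.32, adjusted p = 0.00956) or ENRO (-0.35, adjusted p = 0.00673) was left out and in lane 2 alone (-0.58, adjusted p = 0.00139). It passed on day 56 as well without NC (-0.28, adjusted p = 0.0273) or ENRO (-0.28, adjusted p = 0.0354).

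SGK1 was lower in nearly all steers. It ranged from 66.3 to 297.6 CPM on day 0 (median 135.8), from 51.2 to 223.1 on day 3 (median 99.6) and from 39.4 to 152.9 on day 7 (median 84.9). On day 7, 40 of 42 steers were below their day 0 value, and so were 40 on day 21. The log2 fold change was -0.55 ± 0.07 on day 3 (adjusted p = 2.26e-12), -0.77 ± 0.07 on day 7 (adjusted p = 6.31e-22) and -0.79 ± 0.07 on day 21 (adjusted p = 6.21e-24). From day 21 to day 56 it rose by 0.28 ± 0.07 (adjusted p = 0.00184).

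Step by step, few of the genes changed after day 7. From day 3 to day 7, 3 of 8 changed (19.5% of all genes), namely FKBP5 (-0.30 ± 0.10), KLF9 (-0.50 ± 0.18) and SGK1 (-0.22 ± 0.07), all downwards. From day 7 to day 14, 2 of 8 changed, NR3C1 and TSC22D3 in opposite directions, against 47% of all genes. From day 14 to day 21 none passed by edgeR (12.1% of all genes) or by limma voom. In the edgeR fit 3 had an unadjusted p under 0.05, and the smallest adjusted p was 0.0508, for FKBP5. SGK1 alone passed from day 21 to day 56 by edgeR (6.29% of all genes).

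In the first week fewer genes passed in the steers of lane 1, among the 8 genes and among all genes. When each lane was fitted alone, with 14 steers each, 1, 6 and 6 of the 8 genes were lower on day 3 in lanes 1, 2 and 3, against 2.73%, 11% and 10.8% of all genes. On day 7 the counts were 1, 7 and 5 (8.55%, 15.3% and 12.8% of all genes) and on day 14 they were 5, 8 and 7 (20%, 23.4% and 24%). On day 21 they were 5, 7 and 6 (18.8%, 25.9% and 25.7%), and on day 56 they were 6, 5 and 6 (22.6%, 23.8% and 24.7%). In lane 1, which held NC, ENRO and 2 FLOR steers, SGK1 was the gene that passed on both days. Whether the lanes differed was not tested apart from the comparisons of groups given further on.

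Markers of blood cells moved over the same days. Over all genes tested, the shares lower on the 5 later days were 18.3%, 19.7%, 30%, 31.6% and 30.8%. The shares higher were 20.6%, 24%, 32.8%, 32.7% and 32.5%. Of 14 neutrophil markers tested, 6, 9, 7, 8 and 8 were lower on the 5 later days and 1 was higher on day 14, and their summed level fell from a median of 3614 CPM on day 0 (2001 to 6221) to 2187 on day 7 (1481 to 5469) and 2109 on day 21 (1179 to 3974). Of 10 monocyte markers, 2, 7, 7, 7 and 7 were lower and 1 was higher on day 21, with summed medians of 866.9 CPM on day 0 (527.9 to 1553) and 573.2 on day 14 (402.9 to 974.4). Of 14 T cell markers, 9, 13, 12, 11 and 12 were higher and 1 was lower on day 14, with summed medians of 2909 CPM on day 0 (2187 to 4688) and 4055 on day 56 (3003 to 5920).

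Erythroid markers were mostly higher on days 14 and 21. Of 11 tested, 6, 6, 9, 10 and 3 were higher, against 20.6%, 24%, 32.8%, 32.7% and 32.5% of all genes, and none was lower. The median log2 fold change of these markers was 1.2 on day 14 and 1.25 on day 21. Their summed median was 2649 CPM on day 0 (369.1 to 39690) and 35806 on day 21 (1102 to 262183). Of 8 eosinophil and basophil markers, 3, 2, 5, 5 and 5 were higher and 1 was lower on each day, with median log2 fold changes from 0.18 to 0.78. When the mean levels of the neutrophil, T cell and erythroid lists were added to the fit, NR3C1, ZBTB16 and SGK1 were still lower on every day and KLF9 on days 7 to 56. The other marker lists, monocyte markers among them, were not part of it, so cell numbers were accounted for only in part. DUSP1 did not pass on days 3 to 21 in the fit with the 3 lists (-0.22, adjusted p = 0.219 on day 21), TSC22D3 not on days 14 and 21 (-0.06, adjusted p = 0.577 on day 21) and FKBP5 not on days 3 and 21 (-0.27, adjusted p = 0.101 on day 21).

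**Figure D2:**
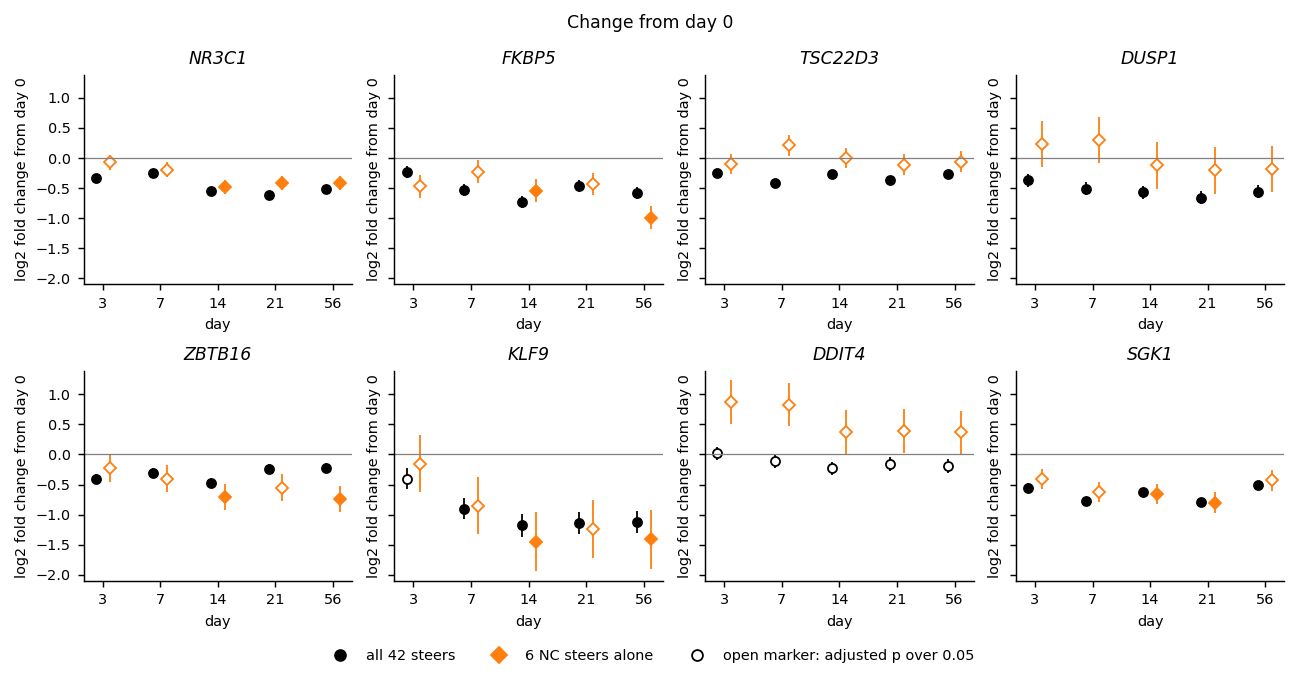
Log2 fold change from day 0 on each later day, with standard errors, for all 42 steers (black circles) and for the 6 NC steers alone (orange diamonds). Filled markers have an adjusted p of at most 0.05; NR3C1 and SGK1 lie below 0 on every day in both, whereas the NC values of DDIT4 lie above 0 on every day.

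In the 6 NC steers alone, which show the time course without a drug, the fall was detected later. On day 3 none of the 8 genes was lower (0.00525% of all genes), on day 7 none (1.48%), on day 14 there were 5 (13.4%), on day 21 there were 2 (10.4%) and on day 56 there were 4 (13%). At an unadjusted p under 0.05, edgeR gave 2 lower genes on day 3, FKBP5 (-0.47 ± 0.19, adjusted p = 0.579) and SGK1 (-0.41 ± 0.17, adjusted p = 0.618), and 1 on day 7, SGK1 (-0.62 ± 0.17, adjusted p = 0.0544). DESeq2 called 0 genes lower on day 3 and 1 on day 7, again SGK1, and limma voom 0 on both days.

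NR3C1 in the NC steers ranged from 49.2 to 79.3 CPM on day 0 (median 61.5) and from 37.9 to 50.2 on day 14 (median 46.6). The 2 ranges overlapped only in steer 13, whose day 0 value of 49.2 CPM was below the highest day 14 value, and all 6 steers fell (-0.48 ± 0.12, adjusted p = 0.00576). FKBP5 ranged from 92.1 to 212.3 CPM on day 0 (median 129.4) and from 57.3 to 83.6 on day 56 (median 70.7), with no overlap (-0.99 ± 0.19, adjusted p = 5.17e-04). SGK1 was lower in all 6 steers on days 3, 7, 14 and 21, from a median of 130.9 CPM on day 0 (66.3 to 252.2) to 75 on day 21 (45 to 130.1), and passed on days 14 and 21.

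ZBTB16 in the NC steers went from a median of 3.07 CPM (1.73 to 5.2) on day 0 to 2.07 (0.928 to 3.20) on day 14, a log2 fold change of -0.71 ± 0.22 (adjusted p = 0.017). KLF9 went from 5.77 CPM (1.90 to 9.73) to 1.97 (0.765 to 3.6), and 5 of 6 steers were lower (-1.45 ± 0.49, adjusted p = 0.0309). Leaving out single steers ended several of these calls. Without steer 7 or steer 12, 2 genes were lower on day 14, and without steer 7, 12 or 13, 1 gene was lower on day 56, which was FKBP5.

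TSC22D3, DUSP1 and DDIT4 did not pass in the NC steers on any day. DDIT4 was above day 0 on every later day in its log2 fold change, whereas DUSP1 was above it on days 3 and 7 (0.24 ± 0.38 and 0.30 ± 0.38) and TSC22D3 on day 7 (0.21 ± 0.17). DDIT4 had a median of 54.8 CPM on day 0 (27.6 to 119.3), 102.1 on day 3 (55.5 to 187.7) and 105.3 on day 7 (29.3 to 175.9). All 6 steers were above their day 0 value on day 7 and 5 of 6 on day 3, but the spread was wide and the log2 fold changes of 0.87 ± 0.36 and 0.83 ± 0.36 did not pass (adjusted p = 0.618 and 0.243).

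Treated and NC steers were then compared on each day, which asks whether the groups differed. A difference cannot be assigned to the drug, since treatment, pen, order and, for most groups, lane coincide. Of 288 comparisons (8 genes, 6 treatments, 6 days), 4 passed an adjusted p of 0.1, the threshold of the study, and 40 had an unadjusted p under 0.05. Over all genes and the same 36 comparisons, 0.508% passed the adjusted threshold. The share of all genes with an unadjusted p under 0.05 was not computed, here or in the comparisons with NC below. Whether such counts are particular to these 8 genes was therefore not tested. All 4 were on day 3.

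On day 3, FKBP5 was higher in ENRO than in NC. The ENRO steers ranged from 132.6 to 200.5 CPM (median 150.9) and the NC steers from 72.2 to 129.5 (median 98.7), so the groups did not overlap. The log2 fold change was 0.65 ± 0.15 (adjusted p = 0.0718). In this comparison 2.52% of all genes passed, and before the drug, on day 0, the ENRO and NC steers had overlapped widely (68.5 to 218.7 against 92.1 to 212.3 CPM).

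NR3C1 was lower in TILD than in NC on day 3, between 40.7 and 52.8 CPM (median 48) against 53.7 to 66.5 (median 57.6), again without overlap (-0.32 ± 0.08, adjusted p = 0.0973). There 2.48% of all genes passed. It had the same sign in CEFT on day 3 (-0.48 ± 0.17, adjusted p = 0.119), where 1 steer had 23.1 CPM.

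CEFT differed from NC on day 3 in 2 of the genes, and 8% of all genes passed. DDIT4 ranged from 28.5 to 62.2 CPM in CEFT (median 44.3) and from 55.5 to 187.7 in NC (median 102.1), with 1 CEFT steer inside the NC range (-1.31 ± 0.25, adjusted p = 0.0456). KLF9 ranged from 1.33 to 3.14 CPM in CEFT (median 2.56) and from 1.18 to 10.5 in NC (median 6.12), where the lowest value belonged to an NC steer (-1.30 ± 0.40, adjusted p = 0.094). On day 0 the medians of DDIT4 were 62.5 CPM in CEFT and 54.8 in NC, so by day 3 the median had fallen in CEFT and risen in NC. DDIT4 on day 3 was also below NC in OXYT (-0.99), TILD (-0.82), TULA (-0.79) and FLOR (-0.28) and above it in ENRO (0.23), none of which passed.

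These 4 calls lay close to the threshold. FKBP5 in ENRO was lost when any of 9 of the 12 steers was left out (log2 fold change between 0.57 and 0.73), NR3C1 in TILD with 11 of the 12 (between -0.35 and -0.28) and KLF9 in CEFT with 10 of the 12 (between -1.52 and -1.08), whereas DDIT4 in CEFT was lost without NC steer 7 (-1.37, adjusted p = 0.109) or 12 (-1.30, adjusted p = 0.116). After ComBat_seq by lane, FKBP5 in ENRO, which shared lane 1 with NC, passed and the other 3 did not. TILD and CEFT shared no lane with NC, so the adjustment also takes out differences between these groups and NC. It cannot tell whether those 3 calls came from lane.

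**Figure D3:**
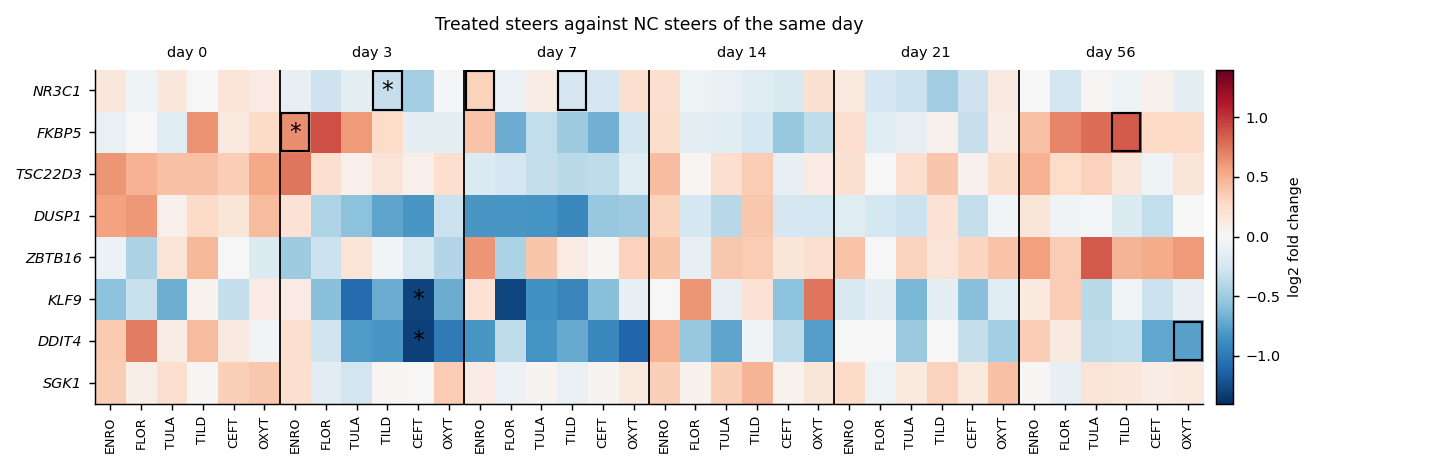
Log2 fold change of each treatment against NC on each day, as colour, for the 8 genes. Stars mark the 4 comparisons with an adjusted p of at most 0.1, all on day 3, and frames mark the 6 comparisons in which the 6 treated and 6 NC steers do not overlap.

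In 6 of the 288 comparisons (2.08%), the 6 treated steers lay entirely above or below the 6 NC steers, against 0.81% over all genes. Beside the 2 already given, NR3C1 was higher in ENRO on day 7 (60.7 to 82.5 against 50.1 to 59.6 CPM) and lower in TILD (42.1 to 49.4 CPM). FKBP5 was higher in TILD on day 56 (90.6 to 192.3 against 57.3 to 83.6 CPM), and DDIT4 was lower in OXYT on day 56 (34.1 to 54.1 against 54.6 to 109.4 CPM). By edgeR none of these last 4 had an adjusted p of at most 0.1, and the smallest was 0.207, for DDIT4 in OXYT. DESeq2 passed 3 of them, NR3C1 in ENRO (adjusted p = 0.0407), FKBP5 in TILD (adjusted p = 0.0203) and DDIT4 in OXYT (adjusted p = 0.0131). After ComBat_seq by lane, the likelihood ratio test passed 1 of them, FKBP5 in TILD (adjusted p = 9.94e-04). The comparisons of a day share the same NC steers, so that an unusual NC steer moves all 6 treatments together.

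The change from day 0 was compared between each treatment and NC, which sets each steer against its own day 0 library. A gap between groups on day 0 enters this comparison with the opposite sign. Of 240 comparisons, 3 passed an adjusted p of 0.05, whereas 0.207% of all genes passed it over the same 30 comparisons. An unadjusted p under 0.05 was found in 59 of the 240, which all share the same NC steers and are not independent. All 3 were ENRO on day 7, in TSC22D3 (-0.82 ± 0.22, adjusted p = 0.02), DUSP1 (-1.34 ± 0.41, adjusted p = 0.0366) and DDIT4 (-1.29 ± 0.40, adjusted p = 0.0397). In that comparison 4.87% of all genes passed.

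In ENRO, TSC22D3 went from 1025 to 2380 CPM on day 0 (median 2090) to 833.8 to 1470 on day 7 (median 1406), and all 6 steers were lower. In NC it went from 766.4 to 1833 CPM (median 1104) to 771.7 to 1874 (median 1511), and 1 of 6 steers was lower. The ENRO median was above the NC median on day 0 and below it on day 7. On day 7 itself, the groups did not differ in TSC22D3 at the threshold (-0.19 ± 0.25, adjusted p = 0.765).

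DUSP1 in ENRO went from a median of 182.4 CPM (137.7 to 381.2) to 133.7 (49.7 to 189.6), and in NC from 128.3 (89.5 to 321.2) to 217.8 (54.2 to 373.5). In ENRO 5 of 6 steers were lower and in NC 3 of 6, and the ranges of day 7 overlapped. DDIT4 in ENRO went from 74.6 CPM (41 to 114.4) to 57.1 (28.4 to 97.4), with 4 of 6 steers lower, while the NC steers were higher in 6 of 6. On day 0 the log2 fold changes of ENRO against NC were 0.56 ± 0.37 for DUSP1 and 0.37 ± 0.37 for DDIT4. On day 7 itself, neither gene passed by edgeR (DUSP1 -0.82 ± 0.53, adjusted p = 0.496, and DDIT4 -0.81 ± 0.43, adjusted p = 0.399).

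NC steer 7 weighed on these results. Between days 0 and 7, it went from 1005 to 1874 CPM in TSC22D3, from 107.4 to 342.7 in DUSP1 and from 27.6 to 123.1 in DDIT4. In the limma voom fit without it, none of the 240 comparisons passed, and TSC22D3 in ENRO had a log2 difference of -0.63 (adjusted p = 0.118). Without NC steer 5, 1 passed in that fit. Without a steer block none of the 240 passed.

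On average over the 6 treated groups, the change from day 0 differed from that of NC in 1 of 40 comparisons, TSC22D3 on day 7 (-0.74 ± 0.17, adjusted p = 0.0428), against 0.0126% of all genes over the 5 days. This mean was added after the data were seen, and 11 of the 40 had an unadjusted p under 0.05. With limma voom none of the 40 passed. Before any drug, on day 0, TSC22D3 had been above NC in all 6 treated groups, with log2 fold changes from 0.34 in CEFT to 0.62 in ENRO. On day 7 itself it was below NC in all 6, from -0.17 in OXYT to -0.38 in TILD. By edgeR none of these comparisons on a day passed, and the difference in change holds both gaps. DDIT4 had log2 differences of -0.99 ± 0.31 on day 3 and -1.10 ± 0.30 on day 7, which did not pass (adjusted p = 0.309 and 0.159).

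**Figure D4:**
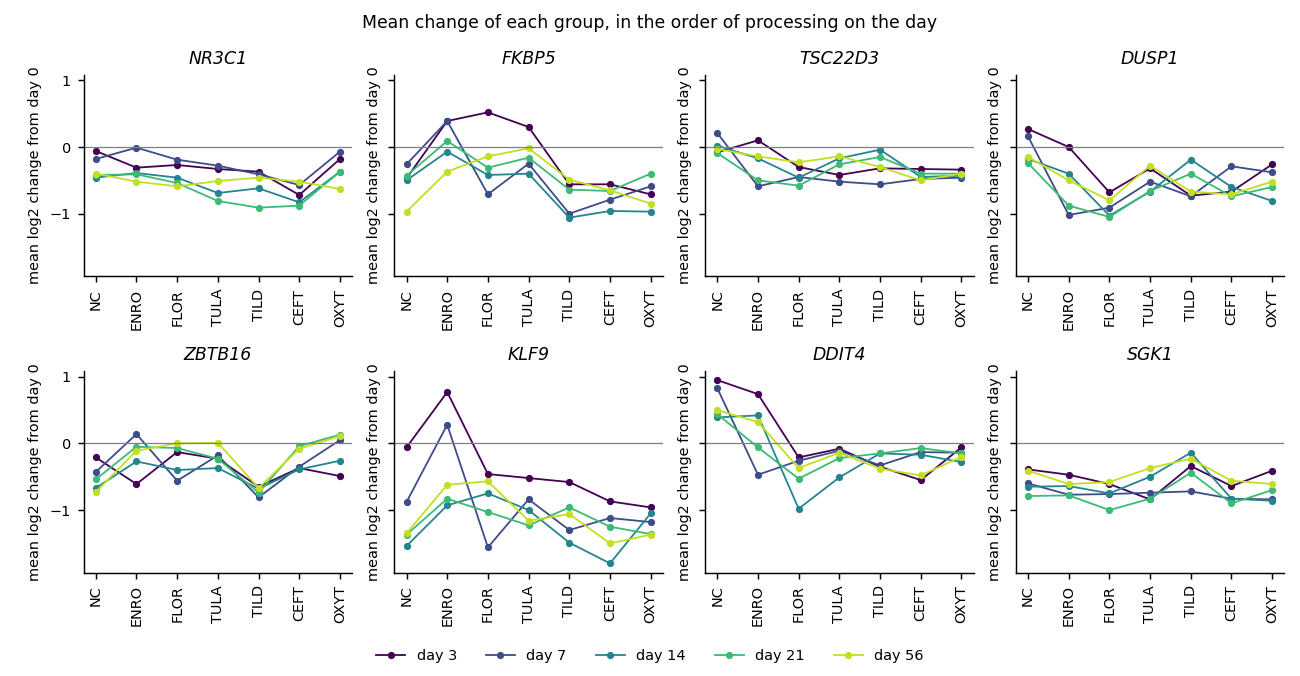
Mean log2 change from day 0 of the 6 steers of each group, with the groups in the order in which they were processed and a line for each day. On day 7 the NC means of TSC22D3, DUSP1 and DDIT4 are above 0 and those of all 6 treated groups are below 0.

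Over all 30 treatment-by-day terms, the time courses of the 7 groups differed in 5 of the 8 genes, against 25.9% of all genes. They were FKBP5 (adjusted p = 2.87e-04), NR3C1 (adjusted p = 0.0115), TSC22D3 (adjusted p = 0.0274), DDIT4 (adjusted p = 0.0304) and ZBTB16 (adjusted p = 0.0323). DUSP1 (adjusted p = 0.24), SGK1 (adjusted p = 0.517) and KLF9 (adjusted p = 0.806) did not pass. Without a steer block 1 of 8 passed.

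The groups of FKBP5 differed in sign on day 3. Its mean log2 change on day 3 was 0.39 ± 0.70 (SD, n = 6) in ENRO, 0.52 ± 0.55 in FLOR and 0.30 ± 1.0 in TULA. It was -0.47 ± 0.32 in NC, -0.56 ± 0.96 in TILD, -0.56 ± 0.92 in CEFT and -0.71 ± 0.64 in OXYT. On day 7 ENRO alone was above 0 in the mean (0.39 ± 0.85), and FLOR had a mean of -0.71 ± 0.46. ZBTB16 on day 56 had means of -0.73 ± 0.52 in NC and -0.67 ± 0.56 in TILD, while the other 5 groups lay between -0.11 and 0.11.

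As a level over all 6 days, no treatment differed from NC in any of the 8 genes (0 of 48 comparisons, 5 with an unadjusted p under 0.05, limma voom), against 1.95% over all genes. The smallest adjusted p was 0.165 for TSC22D3 in ENRO (0.42 ± 0.14), followed by 0.174 for DDIT4 in OXYT (-0.69 ± 0.23). On day 0, before any drug, the widest gap of group medians, as a ratio, was in TSC22D3, with 1104 CPM in NC and 2090 in ENRO, and it did not pass (0.62 ± 0.27, adjusted p = 0.868).

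The mean change of a group was also related to its place in the processing order. None of 40 relations (8 genes, 5 days, 7 groups) passed after adjustment, by an exact permutation test, two-sided. KLF9 on day 3 had the strongest rank relation, with Spearman's rho of -0.96 (exact permutation p = 0.00278, adjusted p = 0.111), Pearson's r of -0.80 (exact permutation p = 0.0175, adjusted p = 0.333) and r = -0.84 without the first and last groups. TSC22D3 on day 56 had r = -0.90 (exact permutation p = 0.00833, adjusted p = 0.333), rho = -0.86 (exact permutation p = 0.0238, adjusted p = 0.476) and r = -0.84 without the first and last groups. For KLF9 on day 3 the group means were -0.06 ± 1.10 (SD, n = 6) in NC and 0.77 ± 0.76 in ENRO, the groups processed first, and -0.87 ± 0.80 in CEFT and -0.96 ± 0.70 in OXYT, the groups processed last.

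The genes differed in how much of their variance lay between steers. The share between steers, as log2 CPM, was 56.4% for SGK1, 52.4% for ZBTB16 and 45.8% for TSC22D3, and lowest for KLF9 at 27.3%, against a median of 38.6% over all genes. The share between days was 34.4% for NR3C1, 20.5% for SGK1 and 18.5% for KLF9, against a median of 8.36% over all genes, and 1.54% for DDIT4. Of the variance of DDIT4, 20.6% lay between the 7 groups, against a median of 7.27%. Steers kept their levels over days, so that the median SGK1 level of a steer ranged from 56.5 CPM in NC steer 15 to 162.5 in a TILD steer.

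Beyond shared steers and days, the 8 genes did not move as 1 unit. After steer means and group-by-day means were removed, Spearman's rho over all libraries, which share steers, was 0.73 for DUSP1 and DDIT4, 0.55 for TSC22D3 and SGK1, 0.53 for TSC22D3 and DUSP1 and 0.47 for each of TSC22D3 with DDIT4 and DUSP1 with SGK1. The median of the 28 pairs was 0.12. FKBP5, ZBTB16 and KLF9 had no correlation above 0.26 with any other of the 8 genes, and NR3C1 none above 0.32. The platelet marker list had rho of 0.36 with TSC22D3. The neutrophil list had 0.35 with TSC22D3, 0.35 with SGK1 and 0.28 with DUSP1, and the T cell list had 0.32 with ZBTB16, and their part in these correlations was not tested.

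**Figure D5:**
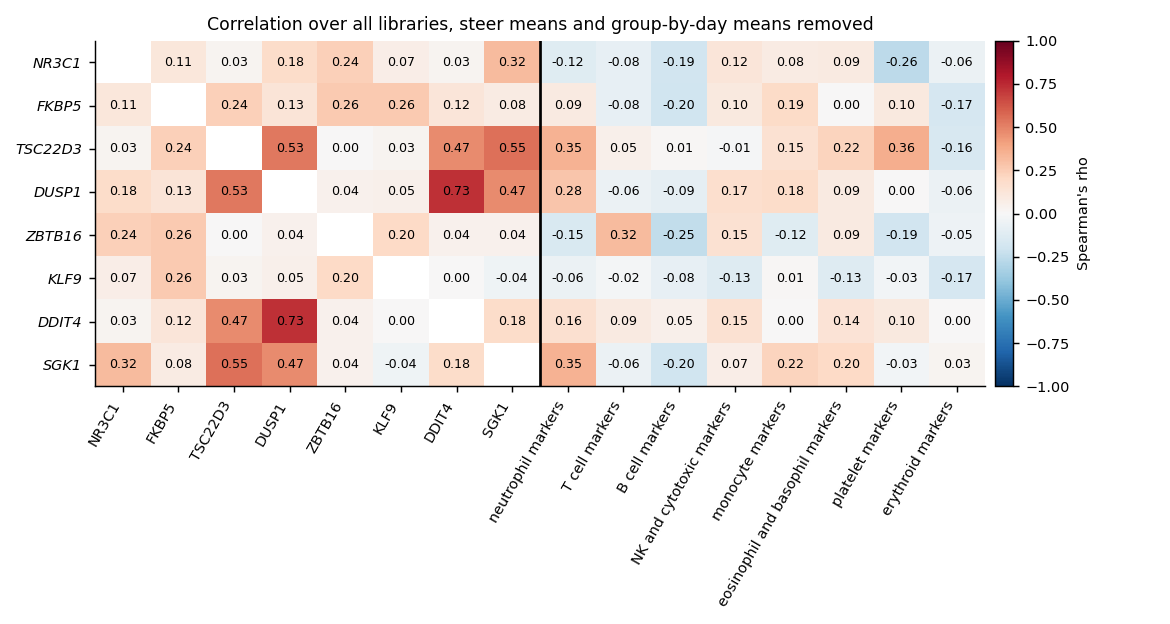
Spearman's rho over all libraries, after steer means and group-by-day means were removed, among the 8 genes (left of the line) and between each gene and the mean level of 8 marker lists (right). TSC22D3, DUSP1, DDIT4 and SGK1 hold the 5 values above 0.4, with the highest, 0.73, between DUSP1 and DDIT4.

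Among 13801 genes with a mean CPM of at least 1, those most like each gene by the same measure differed in strength. For NR3C1 they were DDX3X, RC3H2 and PUM2, which encode RNA-binding proteins, each with rho = 0.86. For DUSP1 they included RHOB (0.78) and FOS (0.75), an immediate early gene, and for DDIT4 they included RHOB (0.76) and DUSP1 itself. TSC22D3 was nearest to TXNIP (0.78), NFKBIA (0.72) and NDEL1 (0.72), SGK1 to MARCKS (0.74), TMEM154 (0.73) and BASP1 (0.71), and FKBP5 to OGFRL1 (0.61), GLUL (0.54), which encodes glutamine synthetase, and GLULP (0.53), which may share reads with GLUL.

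ZBTB16 was nearest to PPP2R5C (0.59), FAM168A (0.55) and MGAT5 (0.55). KLF9 had no close neighbour, the highest being LOC112446117 (0.36) and RNF24 (0.34). The neighbours shared the direction of the day effect in part. MARCKS was lower on all 5 later days (-0.43 to -1.09), and RHOB passed on day 14 alone (-0.20).

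Other genes of the pathway were read from lists that were chosen with results of these data known. Of 34 further genes induced by glucocorticoids, 18 were lower and 4 higher on day 3, 23 and 3 on day 7, 26 and 2 on day 14, 26 and 4 on day 21, and 23 and 4 on day 56. Their median log2 fold change was -0.38 on day 14, against 0.03 over all genes. Over all genes tested, 18.3%, 19.7%, 30%, 31.6% and 30.8% were lower on the 5 days and 20.6%, 24%, 32.8%, 32.7% and 32.5% higher. PDK4, which limits the use of pyruvate, had log2 fold changes of -1.14 on day 3 and -1.91 on day 14. On these days the transcriptional repressor BCL6 had -0.78 and -1.15, and CD163, a scavenger receptor of monocytes and macrophages, had -0.45 and -1.59. PIK3IP1, an inhibitor of phosphoinositide 3-kinase, rose (0.29 and 0.55). In the NC steers alone, 0, 4, 13, 10 and 8 of the 34 were lower on the 5 later days. Over all genes, 0.00525%, 1.48%, 13.4%, 10.4% and 13% were lower in these steers.

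Genes that glucocorticoids repress did not mirror the induced ones. Of 22 tested, 5 were lower and 1 higher on day 3, 10 and 1 on day 7, and 13 and 3 on day 14. On day 21 there were 11 and 3, and on day 56 there were 10 and 3. Over all genes tested, 18.3%, 19.7%, 30%, 31.6% and 30.8% were lower on the 5 days and 20.6%, 24%, 32.8%, 32.7% and 32.5% higher. The count of lower genes on day 3 lay near its share. TNF was higher on every day (0.21 on day 3, 0.47 on day 14), whereas IL2RA (-0.64), the chemokine CXCL8 (-0.75) and IL12B (-0.85) were lower on day 14.

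Among partners of the receptor, coregulators were mostly lower and chaperones went both ways. Of 12 coregulators, 9, 9, 10, 8 and 8 were lower on the 5 later days and 0, 1, 1, 1 and 1 higher. They included NCOA2 (-0.46 on day 3, -0.92 on day 14) and CREBBP (-0.35 and -0.62), which help the receptor to activate genes. Of 12 chaperones and co-chaperones, 9, 7, 7, 4 and 5 were lower and 2, 2, 3, 5 and 2 higher. Over all genes tested, 18.3%, 19.7%, 30%, 31.6% and 30.8% were lower on these days and 20.6%, 24%, 32.8%, 32.7% and 32.5% higher. The chaperone counts of day 21 lay near these shares. HSP90AA1, the chaperone that holds the receptor ready for hormone, was lower on every day (-0.32 to -0.49), and CDC37 was higher (0.08 to 0.28). Of 8 genes of corticosteroid metabolism and related receptors, 3 were tested, and SRD5A1, a steroid reductase, was higher on days 7 to 56 (0.29 to 0.44).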

How the data were processed

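Stranded mRNA libraries of whole blood in PAXgene tubes were sequenced from 42 steers on 6 days (252 libraries, 6 steers per group and day). According to the methods and the submitters' processing notes, the authors trimmed reads with Trimmomatic 0.39, aligned them with HISAT2 to ARS-UCD1.3, assembled transcripts with StringTie 2.2.0 and derived gene counts with prepDE for a read length of 150. The deposited values are raw counts, whole numbers estimated from transcript coverage, without scaling for library size or length and without a lane adjustment. The strand setting of the counting and the annotation release are not given in the sources used here, and genes that overlap others in the newer ARS-UCD2.0 annotation (KLF9 with SMC5, and NR3C1, ZBTB16 and SGK1 with noncoding genes) may share reads with them. No sequences or coordinates are given, since no genome of the files' build was used here.

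Groups, steers and lanes came from the sample labels. Counts were scaled by TMM and 19056 of 33282 genes were tested (CPM above 0.2 in at least 12 libraries). Levels are CPM, and log2 levels used a prior count of 2. Fits were run in R 4.3.3 (sva 3.50.0, DESeq2 1.42.0, limma 3.58.1, edgeR 4.0.16) and descriptions in Python 3.11.15 (scipy 1.17.1, pandas 2.3.3, numpy 2.4.6). Libraries held 26073640 to 74110289 counts.

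Days were compared by edgeR's quasi-likelihood test with steer as a fixed block (adjusted p by Benjamini-Hochberg over all genes tested, threshold 0.05), over all libraries and in the 36 NC libraries. Each treatment was compared with NC on a day without a block at a threshold of 0.1, as in the study, and in its change from day 0 with the block. Mean levels over the 6 days were compared by limma voom, in which steer was a random effect. This stands in for the mixed model of the study. In simulated data this fit made more false calls than its threshold allows. For fits of 60 or more libraries the dispersion trend was estimated on every 20th gene by abundance. Standard errors follow from the test statistic. With steer as a fixed block, p-values measure the spread left after steer means are taken out. In the comparisons on a day they measure the spread between steers.

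Libraries of 1 steer are paired by the steer's own name. Their deviations from group-by-day means had a median correlation of 0.34 within a steer (0.26 to 0.45 over 42 steers), so steer was kept as the block. Between steers the median was -0.07, a value that taking out the group-by-day means itself pushes below 0. Named were all 8 genes, from each other list at most 4 genes with the smallest p for the effect of day, and for each of the 8 genes the 3 most correlated genes, of which 1 of KLF9 has no symbol and is not named, and 1 each of DUSP1 and DDIT4 is not reported here. The 8 genes and all lists were chosen with earlier results of these data known. Alternatives were another scaling, no filter, no hemoglobin genes, other tests, ComBat_seq by lane, single lanes, groups left out, marker lists as covariates and steers left out.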

Additional observations from a re-analysis of the deposited data

Results flagged for a closer look

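In 336 sets of 6 steers (8 genes, 7 groups, 6 days), 20 had a steer set apart from the other 5 by Dixon's test, and chance gives about 1 in 20 sets. The 20 values came from 13 steers. For NR3C1 it was Tula3 on day 21 (56.4 CPM). For FKBP5 they were Flor3 on day 0 (382.4 CPM) and day 7 (126.9 CPM) and Enro5 on day 56 (133.5 CPM). For TSC22D3 it was Flor6 on day 21 (593.5 CPM), for DUSP1 Tula4 on day 14 (66.3 CPM) and for DDIT4 Oxyt2 on day 7 (96.2 CPM). For ZBTB16 they were Oxyt6 on day 3 (0.75 CPM) and day 14 (1.31 CPM) and Flor3 on day 14 (3.55 CPM). KLF9 had 6 such values, which were Enro5 (0.964 CPM) and Oxyt5 (1.7 CPM) on day 0, Ceft4 on day 3 (1.33 CPM), Oxyt5 on day 7 (0.233 CPM), Flor7 on day 14 (0.661 CPM) and Oxyt9 on day 56 (4.86 CPM). SGK1 had 4, which were Flor10 on day 3 (53.3 CPM) and day 7 (39.4 CPM), and Enro6 (63.6 CPM) and Oxyt6 (64.7 CPM) on day 21. KLF9 in Ceft4 on day 3 belongs to the comparison of CEFT with NC that passed, and the call was lost in 10 of 12 fits with 1 steer left out.

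Differences between groups were tested as interactions. The change from day 0 to day 7 was lower in ENRO than in NC by edgeR with a steer block for TSC22D3 (log2 difference -0.82), DUSP1 (-1.34) and DDIT4 (-1.29). Over all days, the adjusted p of the difference between the 7 time courses was 2.87e-04 for FKBP5, 0.0115 for NR3C1, 0.0274 for TSC22D3, 0.0304 for DDIT4 and 0.0323 for ZBTB16.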

How the results depend on the processing

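Of the recomputed counts and medians, 183 stayed within 1.5 times or 1 SD of the reported value and 39 did not. Of the values of single genes, 1298 kept their side of the threshold, 138 lost a call and 17 gained one, and no called value changed sign. The cause of these changes was not tested, apart from the fewer steers in the fits that leave some out. Without the replicate block, genes changed numbered 0 (3 with it) from day 3 to 7, 1 (2) from day 7 to 14 and 0 (1) from day 21 to 56, and genes lower in NC numbered 1 (5) on day 14, 1 (2) on day 21 and 2 (4) on day 56. For treated against NC, 0 (3) of the changes from day 0 and 1 (5) of the interactions passed. The pairing by steer moved no other count by over 1.5 times. Lane 1 alone gave 1 lower gene on day 3 (6 over all lanes) and 1 on day 7 (7), and marker lists as covariates gave 4 (7) on day 21. Without the filter on low counts, 1 gene (2) changed from day 7 to 14, 2 (4) comparisons with NC on a day passed, and 1 (0) group effect over all days passed. Without hemoglobin genes 1 gene (0) changed from day 14 to 21. DESeq2 gave 1 (0) lower gene in NC on day 7 and 16 (4) comparisons with NC on a day, and ComBat_seq by lane gave 1. Lane coincides with treatment for most groups, so that adjustment also takes out differences between groups.

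Leaving out single NC steers gave 2 to 5 lower genes in NC on day 14 (3 without steer 5 or 13, 2 without 7 or 12), 1 to 2 on day 21 (1 without steer 1 or 13) and 1 to 5 on day 56 (2 without steer 15, 1 without 7, 12 or 13). In limma voom fits chosen after seeing the data, the changes against NC that passed numbered 0 to 4 (0 without steer 7, 1 without steer 5), the interactions 3 to 5 (3 without steer 7) and the group effects 0 to 1 (1 without steer 5). The mean change of the treated groups gave 0 (1 by edgeR) in limma voom with a random replicate block, 2 without steer 13 and 0 without each of steers 1, 5, 7, 12 and 15. For the change from day 0 against NC, the fits without the filter and without single NC steers by edgeR were not run. Other scalings moved the median change of all genes by 0.01 or less on the log2 scale. KLF9 and ZBTB16, with as few as 9 and 30 counts in a library, were limited by depth.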
